A study of Mus musculus with 2 samples.

Results

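The low-matrix preosteoblasts were 450 single cells from mouse femurs that met the rule for preosteoblasts, the precursors of bone-forming osteoblasts, and had little RNA of 3 secreted proteins, Spp1 (osteopontin), Postn (periostin) and Mmp13 (collagenase 3). The cells were chosen by measured UMIs of the genes named in the rule below. Mouse #1 held 144 of them among 2750 cells (5.24%, Wilson interval at 95% from 4.46 to 6.13%), and Mouse #2 held 306 among 4582 (6.68%, 5.99 to 7.44%), which is a mean share of 5.96% ± 1.02 (SD, n = 2), or 6.14% of the 7332 cells of the series. A preosteoblast had at least 5 unique molecular identifiers (UMIs, tags that count each captured transcript once) of Alpl, Wif1, Kcnk2 and Limch1 per 10000 of its UMIs, and more of these than of the reticular genes Adipoq, Lpl and Hp. It also had under 50 per 10000 of the osteocalcin genes Bglap and Bglap2, and at most 1 UMI each of Ptprc, Cdh5 and the summed cycle genes Mki67 and Top2a. Within each library the preosteoblasts were split at the median of Spp1, Postn and Mmp13 summed per 10000 UMIs. Those below it are described here as low-matrix cells. The other 144 and 307 cells are called high-matrix.

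Both animals had the genotype Cxcl12(GFP/+), Cxcl12-iCreER, R26R(tdTomato/+), were used at postnatal day 28 and had received tamoxifen at postnatal day 21. There was 1 library per mouse and 1 group, so that every comparison was between cell classes within these 2 mice. The Cre came from a bacterial artificial chromosome carrying Cxcl12 sequences, and tdTomato marks cells in which this Cre has acted, and their descendants. In this line some tdTomato also appears without tamoxifen, mostly in blood or endothelial cells, per the study. Cells were taken from bones without the distal growth plate and sorted for GFP per the cell and design labels, while 1 protocol label names tdTomato. Mouse #1 gave 54940400 UMIs and Mouse #2 gave 88790688. The 2 libraries shared 7 barcodes among all cells and 0 among low-matrix preosteoblasts.

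As background, preosteoblasts are committed by the transcription factor Runx2 and then Sp7, express the phosphatase Alpl that provides phosphate for mineral, and later deposit a matrix of type I collagen. Reticular cells of the marrow, which express Cxcl12, Kitl and Lepr, line the sinusoids, supply factors to blood stem cells and carry genes of the adipocyte lineage. Spp1 and Mmp13 are made by several cells of this lineage, including hypertrophic chondrocytes and cells at remodelling surfaces, and are not measures of bone matrix as such.

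The values that chose the cells are given as a description with no test. The median that split the preosteoblasts was 35.3 UMIs per 10000 in Mouse #1 and 17.1 in Mouse #2, so that the limit was not the same in both mice. Low-matrix cells had a median sum of 14.9 and 5.90 per 10000, against 69.6 and 42.7 in high-matrix cells. The nearest cells inside the limit were at 35.1 and 17.002, and the nearest outside at 35.5 and 17.1. In 5 and 17 low-matrix cells no UMI of the 3 genes was seen. The distribution was continuous across the limit, as the histogram of the sum shows, and the 2 classes are ranges of 1 distribution.

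**Figure D1:**
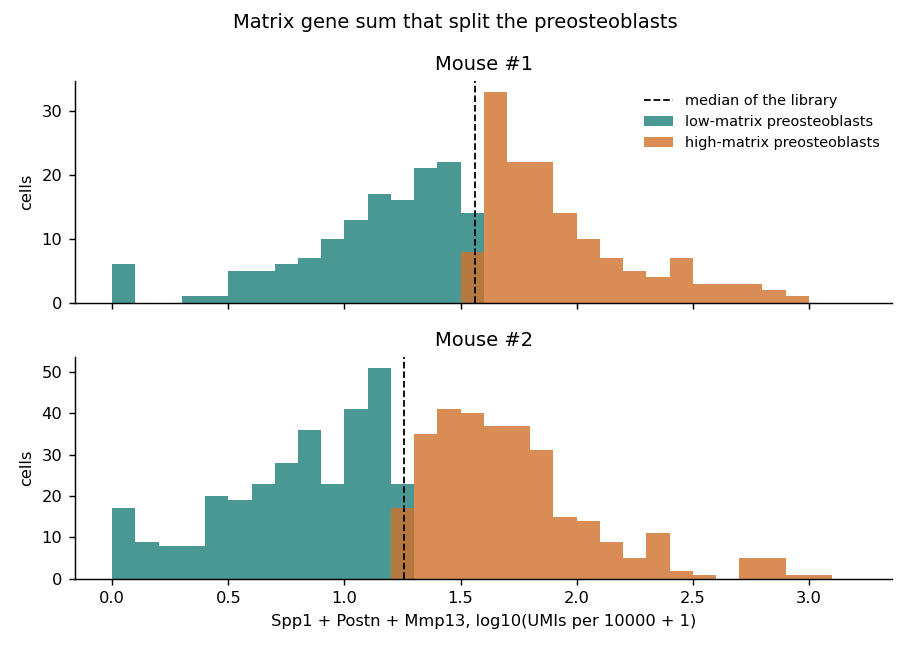
Number of preosteoblasts (vertical axis) by the sum of Spp1, Postn and Mmp13 as log10(UMIs per 10000 + 1) in each mouse. Low-matrix cells lie left of the dashed line, the library median of 35.3 per 10000 in Mouse #1 and 17.1 in Mouse #2, and no gap separates them from the high-matrix cells.

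Each of the 3 genes was lower in the low-matrix sums, as the rule requires, in CPM, the UMIs of a gene scaled to the total UMIs of the class and mouse. Spp1 was at 491 and 234 CPM in Mouse #1 and Mouse #2, against 9226 and 6782 CPM in high-matrix cells. Mmp13 was at 796 and 187 against 4020 and 2705 CPM. Postn differed least, at 285 and 259 against 417 and 402 CPM. When the preosteoblasts of each mouse were ordered by the sum and divided into 4 equal groups, the highest group had 14748 and 11687 CPM of Spp1, while group 2, the upper part of the low-matrix cells, had 836 and 407 CPM.

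Runx2 and Sp7, which the rule did not use, were measured after thinning each cell to 2000 UMIs. Runx2 was detected in 45.8% and 47.4% of low-matrix and 36.2% and 33.2% of reticular cells. Sp7 was detected in 36 of 144 and 62 of 304 low-matrix cells and in 2.497% and 1.91% of reticular cells. In blood cells, as defined with the marker shares below, the shares were 6.08% and 10.3% for Runx2 and 1.35% and 0% for Sp7. The unthinned shares of low-matrix cells were 91.0% and 91.5% for Runx2 and 70.1% and 68.3% for Sp7. The endothelial markers summed to 16.4 and 9.20 CPM over 7 genes, with Cdh5 and Plvap at 0 in Mouse #1. Mural markers summed to 287 and 249.3 CPM over 7 genes. Chondrocyte markers summed to 51.4 and 33.9 CPM over 6 measured genes, with Col9a1 and Matn1 at 0 in both mice. Myeloid markers summed to 181 and 467 CPM and erythroid markers to 360 and 11220 CPM. Of the Hbb-bs UMIs of the low-matrix cells in Mouse #2, 97.2% were in 5 cells. Cells with over 50 UMIs per 10000 of blood genes numbered 1 and 9 among the low-matrix cells and 1 and 1 among the high-matrix cells. Leaving them out gave 6 called genes between these classes, including the 5 described below. Median depth was 13344 and 15004 UMIs per low-matrix cell, against 17256 and 16215 in high-matrix cells. Median mitochondrial content was 5.98% and 6.94% in low-matrix cells, 5.60% and 6.22% in high-matrix cells and 3.59% and 3.78% in reticular cells, and its part in the differences below was not tested.

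Of the 7 genes given as markers of these cells, 3 were higher in low-matrix than in high-matrix cells of both mice. Slc20a2, a sodium-dependent phosphate transporter, was at 462 and 441 CPM against 231 and 407 CPM. Ndnf, a secreted protein first studied in nerve and vessel growth, was at 276 and 306 against 120 and 236 CPM. Tnfrsf19, a receptor of the tumor necrosis factor family, was at 297 and 389 against 200 and 366 CPM. The differences were larger in Mouse #1 for each of them, and small in Mouse #2 for Slc20a2 and Tnfrsf19.

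Of the other 4 markers, 3 were higher in low-matrix cells of Mouse #1 only, and 1 was lower in both mice. Kcnk2, a two-pore potassium channel, was at 997 and 736 CPM in low-matrix cells against 688 and 751 CPM. Limch1, an actin-binding regulator of myosin, was at 1009 and 819 against 873 and 887 CPM. Cldn10, a tight-junction claudin, was at 215 and 104 against 193 and 158 CPM. Angpt4, an angiopoietin ligand, was lower in low-matrix cells of both mice, at 69.2 and 42.1 against 112 and 92.2 CPM. These 7 genes thus mark the preosteoblasts as a whole against reticular cells, in which Slc20a2 was at 29.5 and 33.4 CPM and Ndnf at 27.8 and 45.8 CPM, more than they mark the low-matrix cells. Kcnk2 and Limch1 were themselves in the preosteoblast rule.

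After thinning each cell to 2000 UMIs, which left out 2 low-matrix cells of Mouse #2, Kcnk2 was detected in 77.8% and 70.4% of low-matrix cells, and Slc20a2 in 54.9% and 51.3%. Ndnf was detected in 36.1% and 34.9%, Tnfrsf19 in 45.1% and 54.3%, Cldn10 in 27.8% and 18.4% and Angpt4 in 11.8% and 5.59%. High-matrix cells had 38.2% and 57.0% for Slc20a2, 22.9% and 30.5% for Ndnf and 29.9% and 48.9% for Tnfrsf19. For Slc20a2 in Mouse #2 this order was opposite to that of the CPM. The unthinned shares of low-matrix cells were 98.6% and 95.1% for Kcnk2, 88.2% and 87.9% for Slc20a2 and 70.1% and 80.4% for Ndnf. In cells with 2 or more Ptprc UMIs and under 5 per 10000 of both the preosteoblast and the reticular sum, called blood cells here, of a median 8133 and 6026 UMIs, the thinned shares were 0.676% and 0.690% for Kcnk2, 2.03% and 2.07% for Slc20a2, and 1.35% and 6.21% for Tnfrsf19. For Ndnf they were 0 of 148 and 0 of 145 cells, with 95% Wilson limits up to 2.53% and 2.58%. Kcnk2 and Limch1 belong to the sum that the low-matrix cells had to exceed and the blood cells had to stay under, so that their order was fixed by the rule. The other 5 markers were detected in a larger share of low-matrix than of blood cells in both mice.

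**Figure D2:**
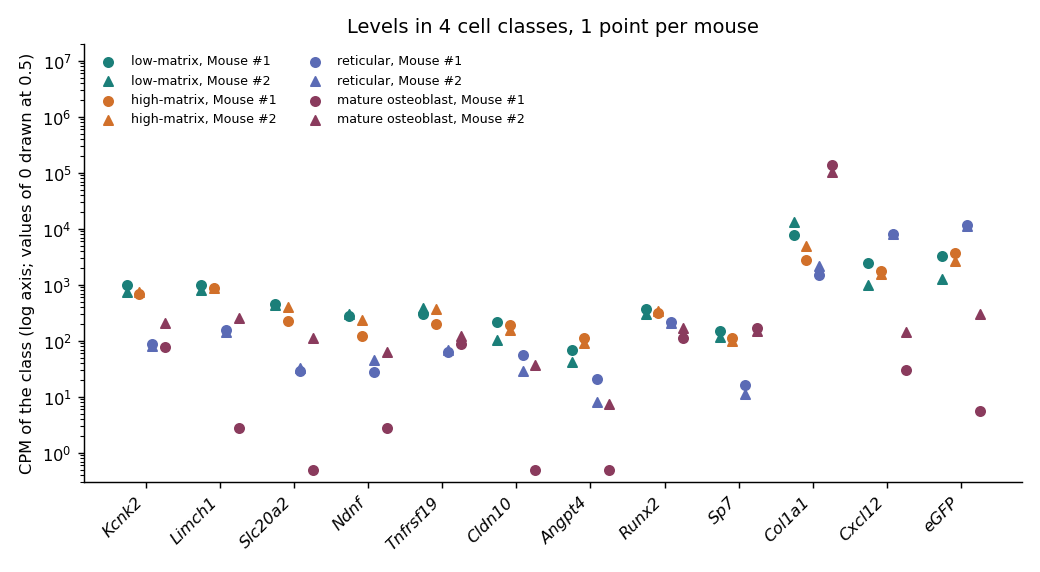
Level in CPM of the class (log axis) of the 7 markers, Runx2, Sp7, Col1a1, Cxcl12 and the eGFP reporter, with 1 point per mouse and cell class. The 7 markers are higher in both preosteoblast classes than in reticular cells, and Col1a1 is higher in low-matrix (7775 and 13067 CPM) than in high-matrix cells (2759 and 5010 CPM). Kcnk2 and Limch1 were part of the rule that set preosteoblasts apart from reticular cells, so that their order was likely from the start.

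The word matrix describes the 3 genes of the rule, and bone collagen was not lower in the summed low-matrix cells. Col1a1, a chain of type I collagen, was at 7775 and 13067 CPM in low-matrix cells against 2759 and 5010 CPM in high-matrix cells, and 5 cells held 77.0% and 36.5% of its UMIs in the low-matrix cells. Among cells with under 1 UMI of Bglap and Bglap2 per 10000, Col1a1 was at 2059 and 1669 CPM in low-matrix and 1858 and 3517 CPM in high-matrix cells, so that the order turned in Mouse #2. On the log2 scale the difference over all cells was 1.42 ± 0.40 (SE), with an adjusted p of 0.433 in the edgeR quasi-likelihood test over all genes, which did not pass. Col1a2, the other chain, was at 7006 and 10427 against 3120 and 4879 CPM (log2 difference 1.12 ± 0.33, adjusted p = 0.469). Ibsp, a sialoprotein of mineralizing matrix, went the other way, at 1629 and 611 against 2775 and 2115 CPM, and did not pass either (−1.17 ± 0.42, adjusted p = 0.627).

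The comparison of low-matrix with high-matrix cells asked which further genes vary with the 3-gene sum. Counts were summed per mouse and class, and a call is an adjusted p under 0.05. Of 11620 genes tested, 5 were called (0.0430%), of which 2 were higher in low-matrix cells (0.0172%) and 3 lower (0.0258%). At an unadjusted p under 0.05 there were 796. The split was made on these cells, and each class had 2 mice, so that the calls describe genes that moved with the sum in both animals. With the mouse as a block, 32 genes were called (0.275%), including the same 5. When preosteoblasts with 5 or more Bglap and Bglap2 UMIs per 10000 were left out of both classes, 1 gene was called and none of these 5, with log2 differences of −2.004 for Timp1, −3.61 for Dmp1, −0.89 for Ank, 7.50 for Cpz and 4.19 for Prss35. When cells over 2 times the median UMIs of their library were left out, 3 genes were called, again none of the 5, with −2.09 for Timp1, −5.72 for Dmp1, −1.34 for Ank, 2.56 for Cpz and 5.12 for Prss35. All 10 of these values kept the sign of the fit on all cells. Below 5 Bglap and Bglap2 UMIs per 10000, however, Cpz and Prss35 were at 0 CPM in both classes of Mouse #1. The values of 7.50 and 4.19 thus rest on Mouse #2. There low-matrix cells with 1 to 5 per 10000 had 7.02 CPM of Cpz and 11.7 CPM of Prss35, against 0 CPM in high-matrix cells. Under 1 per 10000, both genes were at 0 CPM in low-matrix cells, and Prss35 was at 1.15 CPM in high-matrix cells.

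The 3 genes that fell act on matrix turnover and mineral. Timp1, an inhibitor of matrix metalloproteinases (chromosome X, 20870166 to 20874735, GRCm38), was at 69.2 and 62.3 CPM in low-matrix cells and at 314 and 258 CPM in high-matrix cells. Its log2 difference was −2.14 ± 0.20 (SE, edgeR adjusted p = 0.0154). Dmp1, a phosphoprotein of late osteoblasts and osteocytes (chromosome 5, 104202613 to 104214102), was at 0.935 and 2.11 CPM against 92.0 and 47.4 CPM. These were 2 and 11 UMIs in low-matrix cells and 247 and 257 UMIs in high-matrix cells, and the log2 difference was −5.28 ± 0.57 (edgeR adjusted p = 0.0223). Ank, a membrane protein that exports pyrophosphate precursors (chromosome 15, 27466677 to 27594909), was at 17.3 and 21.8 CPM against 50.7 and 60.3 CPM (−1.48 ± 0.18, edgeR adjusted p = 0.0301). All 3 genes were lower in both mice.

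The regulatory windows of Dmp1 and Timp1 are shown because these genes had the largest fall and the lowest adjusted p of the 5. Each runs from 250 bases before to 50 bases after a RefSeq start (GRCm38.p6), and was searched on both strands for the RUNX letters TGTGGT and the AP-1 letters TGANTCA. The Dmp1 window, chr5:104202367-104202666 on the plus strand, holds 1 RUNX match, in capitals, read on the opposite strand and starting at position −164. The Timp1 window, chrX:20869916-20870215 on the plus strand, holds no match, so that no capitals appear, and none was found in the windows of Ank, Cpz and Prss35 or in a second Dmp1 window. RUNX letters occur in 16.8% and AP-1 letters in 7.81% of the 32851 windows of the table.
Dmp1: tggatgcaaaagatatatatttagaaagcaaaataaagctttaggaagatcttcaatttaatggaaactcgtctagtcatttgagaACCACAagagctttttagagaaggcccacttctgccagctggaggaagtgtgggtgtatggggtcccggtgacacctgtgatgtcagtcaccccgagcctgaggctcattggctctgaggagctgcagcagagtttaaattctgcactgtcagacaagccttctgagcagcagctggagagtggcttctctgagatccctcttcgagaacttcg
Timp1: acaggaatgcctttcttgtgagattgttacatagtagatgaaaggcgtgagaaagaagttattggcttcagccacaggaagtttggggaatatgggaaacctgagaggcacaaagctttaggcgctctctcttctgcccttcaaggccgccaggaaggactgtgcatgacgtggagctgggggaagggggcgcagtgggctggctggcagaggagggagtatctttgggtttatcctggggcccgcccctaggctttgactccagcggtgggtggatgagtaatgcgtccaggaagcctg

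Across the 4 groups ordered by the 3-gene sum, these genes were high in the top group. Ank was nearly level in the first 3 groups, at 18.0, 16.5 and 17.6 CPM in Mouse #1 and 23.0, 20.6 and 22.5 CPM in Mouse #2, and reached 74.98 and 93.5 CPM in group 4. Timp1 was between 54.9 and 84.6 CPM in the first 3 groups of Mouse #1 and between 34.3 and 83.4 CPM in those of Mouse #2, and then at 485 and 455 CPM. Dmp1 was at 30.8 and 6.32 CPM in group 3 and at 137 and 83.4 CPM in group 4. Of the Dmp1 UMIs of high-matrix cells, 59.1% and 82.9% were in 5 cells, which limits how far its level describes that class. The tenth of high-matrix cells with most UMIs held 71.5% and 78.1% of those of Timp1 and 57.4% and 72.8% of those of Ank. Timp1 was seen in 43 of 144 and 120 of 306 low-matrix cells and in 84 of 144 and 140 of 307 high-matrix cells. Group 3, the lower part of the high-matrix cells, was not above both low-matrix groups in either mouse for Ank or Timp1.

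**Figure D3:**
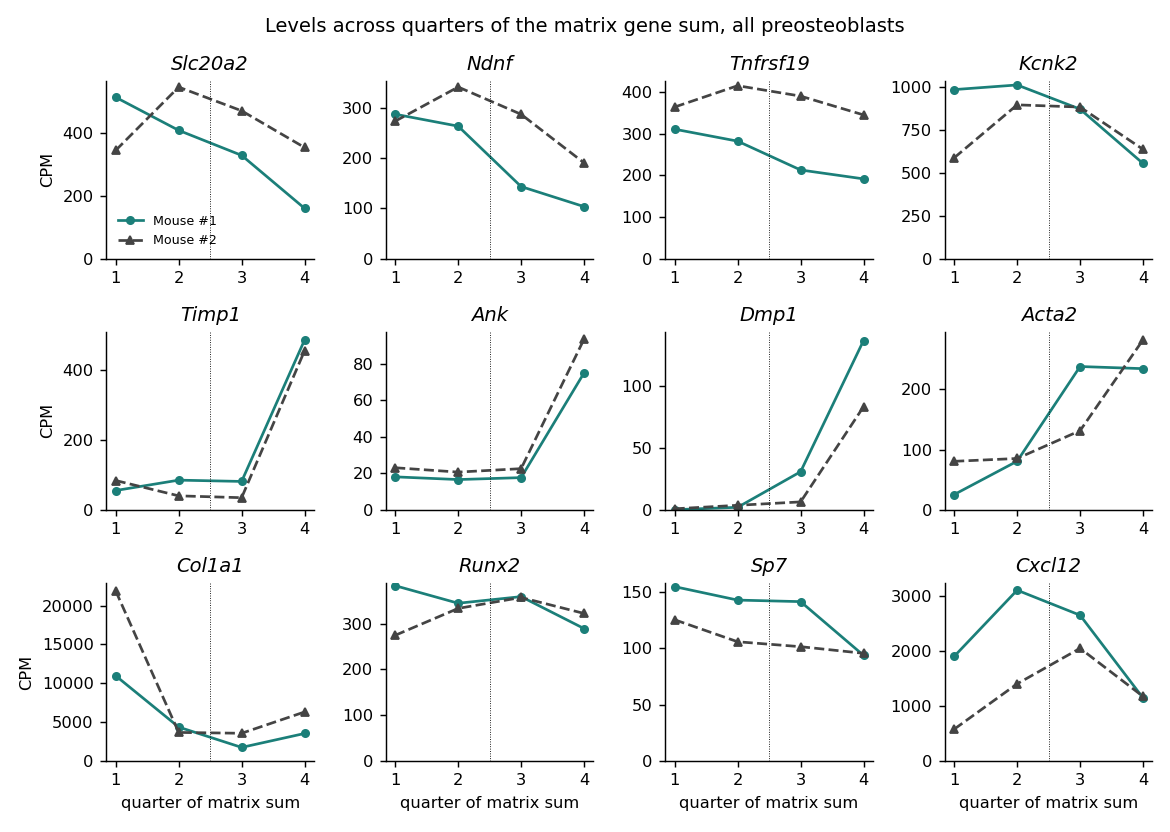
Level in CPM of 12 genes in 4 groups of preosteoblasts ordered by Spp1, Postn and Mmp13 per 10000, with 72 cells per group in Mouse #1 and 153 or 154 in Mouse #2. The dotted line divides low-matrix (groups 1 and 2) from high-matrix cells, Ank and Timp1 rise in group 4, and Col1a1 is highest in group 1. Of the Col1a1 UMIs of low-matrix cells, 77.0% and 36.5% were in 5 cells.

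The group with the lowest sum had the highest summed level of Col1a1 in both mice. Col1a1 was at 10951 and 21877 CPM in group 1 and at 4345 and 3653 CPM in group 2. Ifitm5, a membrane protein of mineralizing osteoblasts, was at 66.6 and 151 CPM in group 1 and 39.8 and 4.76 CPM in group 2. Of the Col1a1 UMIs of all low-matrix cells, 77.0% and 36.5% were in 5 cells, and Ifitm5 was seen in 10 and 33 low-matrix cells. This limits how far the levels of these genes describe group 1 as a whole. Slc20a2 did not have the same course in both mice, with 512, 407, 328 and 160 CPM in groups 1 to 4 of Mouse #1 and a peak of 545 CPM in group 2 of Mouse #2. Cxcl12 was highest in a middle group, at 3115 CPM in group 2 of Mouse #1 and 2053 CPM in group 3 of Mouse #2.

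The 2 genes that rose were Cpz, a carboxypeptidase that binds Wnt proteins, and Prss35, a serine protease-like protein without a settled function. Cpz (chromosome 5, 35502218 to 35525698) was at 25.2 and 31.6 CPM against 0.372 and 2.58 CPM, or 54 and 165 UMIs against 1 and 14 (log2 difference 3.99 ± 0.45, edgeR adjusted p = 0.0223). Prss35 (chromosome 9, 86743649 to 86758443) was at 10.7 and 22.0 CPM, from 23 and 115 UMIs, against 0.372 and 0.922 CPM (4.56 ± 0.51, edgeR adjusted p = 0.0223). It was under the 20 CPM set for naming a gene and is named because it completes the 5 calls. Both were higher in mature osteoblasts, Cpz at 521 and 388 CPM and Prss35 at 188 and 239 CPM.

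Few cells held these UMIs. Cpz was seen in 4 of 144 and 23 of 306 low-matrix cells, and 5 cells held 100% and 57.0% of its UMIs. Prss35 was seen in 3 and 26 cells. Few cells also held the UMIs of 3 genes of the bone matrix list that were called with the mouse as a block, and not without it. Col11a2, a minor fibrillar collagen, was at 91.6 and 223 CPM against 5.96 and 14.02 CPM (blocked adjusted p = 0.0134, edgeR), with 98.5% and 46.8% of its UMIs in 5 cells of the 8 and 45 that had any. Ifitm5 was at 53.7 and 80.1 against 11.9 and 9.41 CPM (blocked adjusted p = 0.0134, edgeR), in 10 and 33 cells. Cthrc1, a secreted protein that binds Wnt and collagen, was at 115 and 193 against 17.9 and 21.4 CPM (blocked adjusted p = 0.0207, edgeR), in 12 and 96 cells. Runx2, which the rule did not use either, was seen in 131 and 280 of the low-matrix cells, and 5 cells held 12.9% and 5.50% of its UMIs. For Col1a1, the tenth of low-matrix cells with most UMIs held 86.6% and 76.2%.

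**Figure D4:**
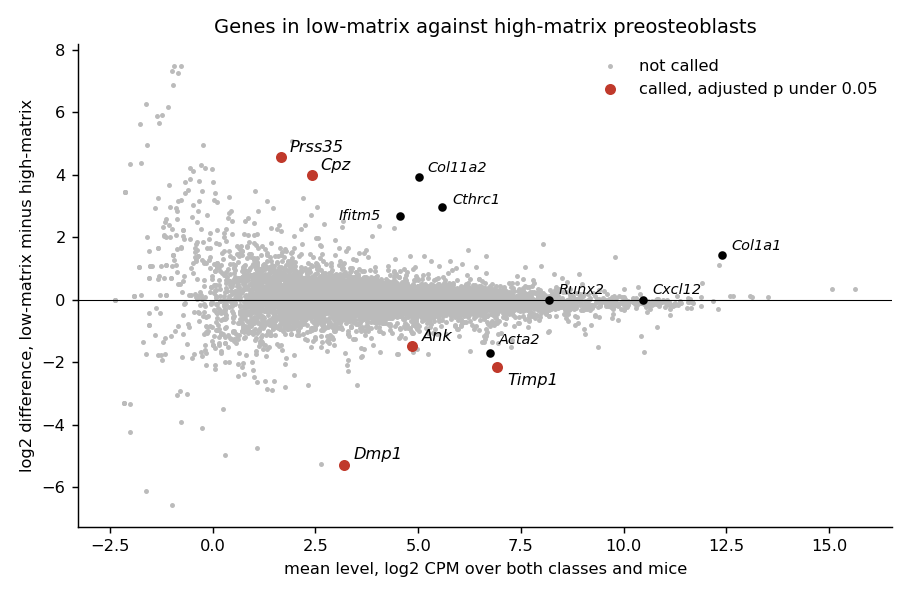
Log2 difference of low-matrix minus high-matrix preosteoblasts (vertical axis) against the mean log2 CPM (horizontal axis), 1 point per tested gene. The 5 called genes are red, Runx2 and Cxcl12 lie near 0, and Col11a2, Cthrc1, Ifitm5 and Col1a1 lie above 0 without a call.

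Genes of bone matrix and mineralization gave 2 calls among 37 tested, both falls (Dmp1 and Ank), where 0.0430% of all tested genes were called. Their median log2 difference was 0.12, against 0.0017 over all tested genes. With the block 7 were called, where 0.275% of all tested genes were. Phex, an endopeptidase of phosphate balance, was lower at 21.03 and 9.39 against 53.3 and 38.2 CPM (−1.73 ± 0.35, adjusted p = 0.222, blocked adjusted p = 0.0453, edgeR). Tnn, tenascin-W, was at 7.01 and 24.5 against 0.745 and 4.80 CPM (blocked adjusted p = 0.0134, edgeR). Acta2, the smooth muscle actin of contractile stromal cells, was at 51.9 and 82.8 against 236 and 212 CPM (−1.71 ± 0.28, adjusted p = 0.150, blocked adjusted p = 0.0120, edgeR). Mural markers had 0 of 7 called by edgeR, 1 called by DESeq2 and a median of −1.38. At an unadjusted p under 0.05 there were 2 of them, where 6.85% of all tested genes had such a p. Of the Acta2 UMIs of high-matrix cells in Mouse #1, 76.7% were in 5 cells.

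Of 16 osteoblast transcription factors 0 were called by edgeR or DESeq2, and 3 were at an unadjusted p under 0.05. Over all tested genes 0.0430% were called and 6.85% had such a p, so that a count of 0 says little about a list of this size. Runx2 was at 365 and 303 CPM in low-matrix cells and 319 and 339 CPM in high-matrix cells. Sp7 was at 149 and 116 against 114 and 98.3 CPM. Their log2 differences were 0.00 ± 0.18 and 0.29 ± 0.20. Of 31 tested genes of the Wnt pathway 0 were called by edgeR or DESeq2, with 3 at an unadjusted p under 0.05. Sfrp4, a secreted Wnt antagonist, was at 74.3 and 85.8 against 160 and 248 CPM (−1.36 ± 0.52), and Wnt5a, a noncanonical ligand, at 44.4 and 41.8 against 27.2 and 34.1 CPM (0.46 ± 0.17). Of 29 BMP pathway genes 0 were called by edgeR without the block, 5 were at an unadjusted p under 0.05 and 1 was called by DESeq2. With the block Bmp8a, a ligand at a low level, was called, at 1.87 and 2.30 against 20.9 and 9.04 CPM (blocked adjusted p = 0.0452, edgeR).

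Among low-matrix cells, levels of osteoblast and reticular genes differed along Bglap and Bglap2, which the rule bounds at 50 per 10000. These bands are a description made after the values were seen. From the band of 0 to 1 per 10000 (61 and 45 cells) through 1 to 5 (44 and 88 cells) and 5 to 20 (33 and 122 cells) to 20 to 50 (6 and 51 cells), Col1a1 went from 2059 to 51281 CPM in Mouse #1 and from 1669 to 18779 CPM in Mouse #2. Ifitm5 went from 2.69 to 398 CPM and from 2.32 to 109 CPM, with 114 CPM in the band before. Cthrc1 went from 1.34 to 826 CPM and from 13.9 to 379 CPM. High-matrix cells also had more Col1a1 in the highest than in the lowest band, at 8038 against 1858 CPM in Mouse #1 and 6706 against 3517 CPM in Mouse #2. Cells under 1 per 10000 made up 42.4% of the low-matrix cells in Mouse #1 and 14.7% in Mouse #2, so that the 2 animals gave unlike mixtures.

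Along the same bands the reticular genes fell. Cxcl12, the chemokine of the marrow niche, fell from 3925 to 178 CPM in Mouse #1 and from 3108 to 310 CPM in Mouse #2. In high-matrix cells Cxcl12 fell from 2481 to 423 CPM and from 2598 to 800 CPM, so that the direction was not particular to low-matrix cells. Lepr, the leptin receptor, fell from 434 to 59.4 and from 467 to 96.3 CPM, and Kitl, the ligand of Kit on blood stem cells, from 391 to 23.8 and from 348 to 63.4 CPM. Runx2 went from 375 to 202 and from 381 to 263 CPM, and Sp7 was between 99.9 and 208 CPM in every band. Of the given markers, Kcnk2 was at 1092 and 924 CPM in the lowest band and 564 and 711 CPM in the highest. Median UMIs per cell also rose along the bands, from 11001 to 28576 in Mouse #1 and from 6389 to 21808 in Mouse #2, and the part of depth or of cells captured together in these courses was not tested.

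**Figure D5:**
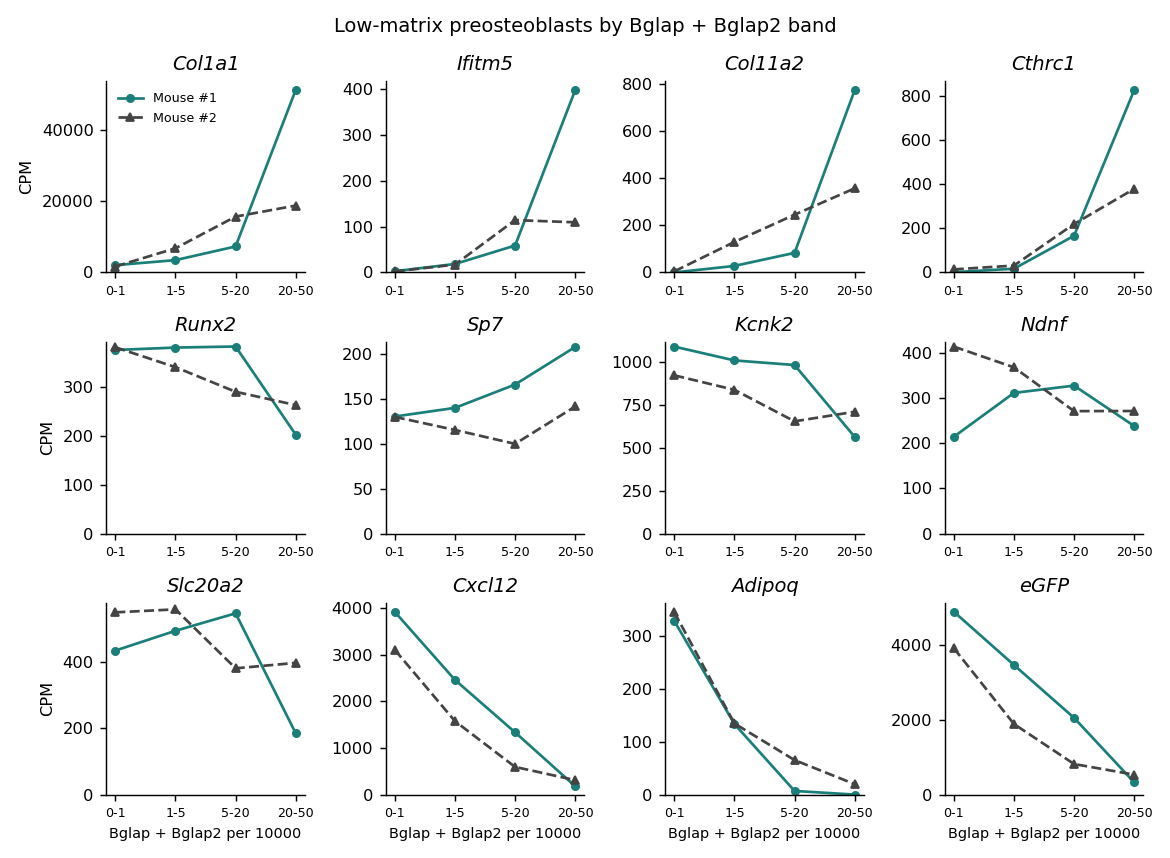
Level in CPM of 12 genes in low-matrix preosteoblasts divided by their Bglap and Bglap2 UMIs per 10000, with 61, 44, 33 and 6 cells in Mouse #1 and 45, 88, 122 and 51 in Mouse #2. Col1a1, Ifitm5, Col11a2 and Cthrc1 rise, and Cxcl12, Adipoq and the eGFP reporter fall, toward the band of 20 to 50. High-matrix cells, not drawn here, had the same direction for Col1a1, Cxcl12 and eGFP between the lowest and the highest band.

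The reporters were not used by the rule. eGFP, read from the Cxcl12 locus, was at 3330 CPM in low-matrix cells of Mouse #1 (95% exact Poisson interval 3253 to 3409) and 1269 CPM in those of Mouse #2 (1239 to 1300), a mean of 2300 ± 1457 (SD, n = 2). It was at 3665 and 2673 CPM in high-matrix cells, 11858 and 11253 CPM in reticular cells and 19.5 and 37.3 CPM in blood cells. Along the Bglap bands of low-matrix cells eGFP fell from 4887 to 327 CPM and from 3914 to 533 CPM. In those of high-matrix cells eGFP went from 4503 to 1074 CPM and from 3317 to 1953 CPM. Cxcl12 itself was at 2487 and 977 CPM in low-matrix and 1787 and 1585 CPM in high-matrix cells, with the classes in opposite order in the 2 mice. Thinned detection of eGFP was 80.6% and 48.4% in low-matrix cells against 6.76% and 11.0% in blood cells.

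tdTomato, the lineage reporter, was at 29.0 CPM in low-matrix cells of Mouse #1 (22.2 to 37.1) and 127 CPM in those of Mouse #2 (117 to 137), a mean of 77.8 ± 69.1 (SD, n = 2). In reticular cells it was at 763 and 1052 CPM, and in blood cells at 16.9 and 29.8 CPM. Thinned detection in Mouse #1 was 6.25% in low-matrix (95% Wilson interval 3.32 to 11.5%) and 7.43% in blood cells (4.20 to 12.8%). These intervals overlapped, so that detection gave no clear order in Mouse #1. In Mouse #2 it was 11.5% in low-matrix cells (8.40 to 15.6%), above the 2.07% of blood cells (0.706 to 5.91%). Since blood cells can carry tdTomato in this line, their level is not a measure of free RNA alone. In Mouse #2 tdTomato went from 46.4 CPM in the lowest Bglap band to 178 CPM in the highest, the opposite course to eGFP. Mouse #1 had 63.2 and 11.9 CPM in these bands. Of the tdTomato UMIs of low-matrix cells, 66.1% and 43.6% were in 5 cells, which limits how far these levels describe the bands.

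The comparison with reticular cells places the low-matrix cells against the main population of the sort. Of 11620 genes, 2509 were called (21.6%), with 1116 higher in low-matrix cells (9.60%) and 1393 lower (11.99%). Both classes were cut on gene sums of the same cells, so that genes that vary with those sums were likely to differ. The osteoblast transcription factors gave 9 rises and 2 falls among 16 tested, with a median log2 difference of 0.85 against 0.02 over all tested genes. Sp7 was at 149 and 116 against 16.1 and 11.3 CPM (3.25 ± 0.22, edgeR adjusted p = 3.2e-05) and Mef2c at 223 and 292 against 37.7 and 47.5 CPM (2.57 ± 0.24). Dlx5, a homeobox factor of osteoblasts, was at 211 and 135 against 81.8 and 71.5 CPM (1.13 ± 0.20). Runx2 rose less, from 216 and 208 CPM in reticular cells to 365 and 303 CPM (0.63 ± 0.18, edgeR adjusted p = 0.0364). High-matrix cells had 114 and 98.3 CPM of Sp7 and 319 and 339 CPM of Runx2, so that higher levels than in reticular cells were not particular to low-matrix cells. Twist2, a repressor of osteoblast maturation, and Sox4 fell, by 2.69 and 0.83 on the log2 scale.

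Reticular niche genes fell in 20 of 30 tested, against 11.99% of all genes, and rose in 0, with a median of −1.84. Esm1, a proteoglycan of this lineage, was at 63.1 and 40.4 against 1044 and 1076 CPM (−4.41 ± 0.39). Vcam1, an adhesion receptor, was at 367 and 210 against 1734 and 1644 CPM, Kitl at 235 and 142 against 1037 and 1113 CPM and Cxcl12 at 2487 and 977 against 8255 and 8146 CPM, and all 3 passed. In blood cells Cxcl12 was at 29.7 and 79.5 CPM. eGFP, at a log2 difference of −2.37 ± 0.87, did not pass (edgeR adjusted p = 0.0811), and tdTomato did (−3.51 ± 0.56, edgeR adjusted p = 0.0020).

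Matrix genes gave 14 rises and 7 falls among 37 tested, against 9.60% and 11.99% of all genes. Fn1, fibronectin, was at 1324 and 1197 against 147 and 136 CPM (3.13 ± 0.25), in nearly the same amount in both mice. Omd, osteomodulin, a keratan sulfate proteoglycan of bone, was at 352 and 944 against 28.3 and 40.6 CPM (4.22 ± 0.82), and Smpd3, a sphingomyelinase needed for mineralization, at 106 and 202 against 2.36 and 6.18 CPM (5.12 ± 0.58). Among hormone and growth factor receptors 5 rose and 6 fell of 21. Pth1r, the parathyroid hormone receptor, was at 582 and 616 against 151 and 129 CPM (2.07 ± 0.24), Clec11a, a growth factor for osteogenesis, at 406 and 384 against 133 and 134 CPM (1.54 ± 0.20), and Ghr, the growth hormone receptor, at 237 and 168 against 672 and 776 CPM (−1.87 ± 0.31).

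Signaling genes went both ways, and their counts are read against 9.60% higher and 11.99% lower over all genes. In the Wnt list 7 rose and 10 fell of 31, with Lrp4, a receptor of sclerostin, at 197 and 99.8 against 39.3 and 37.2 CPM (1.90 ± 0.31) and Sfrp4 at 74.3 and 85.8 against 932 and 1033 CPM (−3.64 ± 0.56). Lef1, a nuclear effector of the pathway, was called at a low level (13.1 and 11.1 against 1.46 and 1.16 CPM). Its thinned detection was 0.694% and 3.29% in low-matrix, 1.39% and 4.26% in high-matrix and 0.337% and 0.381% in reticular cells. Blood cells had 8.11% and 8.97%, above all 3 of these classes. In the BMP list 6 rose and 9 fell of 29. Bmp3, an antagonist in bone, was at 27.6 and 18.2 against 1.31 and 1.60 CPM, while Bmp4 was at 32.7 and 31.0 against 271 and 227 CPM and its inhibitor Fst at 55.1 and 37.6 against 436 and 386 CPM.

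Of 14 tested claudins, cadherins and gap junction genes 5 rose and 4 fell, with a median of 0.04 against 0.02 over all tested genes, and of 14 ion channel and phosphate transport genes 7 rose and 2 fell. Panx3, a channel of maturing osteoblasts and chondrocytes, was at 37.8 and 54.0 against 0.753 and 1.43 CPM (5.30 ± 0.31, edgeR adjusted p = 1.7e-05). High-matrix cells had 38.7 and 30.4 CPM, so that Panx3 belonged to both preosteoblast classes. Gja1, connexin 43, was at 1705 and 1762 against 729 and 753 CPM (1.20 ± 0.23). The potassium channel Kcnh1 was at 19.6 and 31.0 against 1.26 and 1.71 CPM (4.08 ± 0.37). Acta2 was at 51.9 and 82.8 against 11.2 and 14.98 CPM (2.37 ± 0.29). Immediate early and heat shock genes fell in 11 of 18, against 11.99% of all genes, with Jun at 899 and 829 against 2334 and 1976 CPM and Egr1 at 391 and 333 against 980 and 745 CPM.

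By the rule for named genes, the largest rises over reticular cells were Fat3, an atypical cadherin, Cthrc1, Insc, an adaptor of spindle orientation, Car3, a carbonic anhydrase, Cgref1 and Col22a1. Fat3 was at 135 and 178 against 0.151 and 2.87 CPM (6.46 ± 0.61), and Insc at 25.7 and 40.2 against 0.151 and 0.800 CPM. High-matrix cells had 77.5 and 93.7 CPM of Fat3 and 17.9 and 18.4 CPM of Insc. The largest falls were Mmp9, Ptchd1, Chrdl1, an inhibitor of BMP, Pla1a, Prelp, a leucine-rich matrix protein, and Apod, a lipid carrier. Chrdl1 was at 11.2 and 19.2 against 688 and 597 CPM (−5.35 ± 0.46), and Prelp at 7.01 and 14.2 against 317 and 466 CPM (−5.11 ± 0.59).

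The last comparison set low-matrix cells against mature osteoblasts, cells with at least 50 Bglap and Bglap2 UMIs per 10000, of which there were 9 in Mouse #1 and 69 in Mouse #2. Of 11620 genes, 1819 were called (15.7%), with 657 higher in low-matrix cells (5.65%) and 1162 lower (10.0%). When cells over 2 times the median UMIs were left out, which removed 4 and 46 of the mature cells, 0 genes were called by edgeR, with 1355 at an unadjusted p under 0.05. Median depth of the mature cells was 24074 and 33814 UMIs. Without the deep cells the log2 differences kept their sign for the called genes below that have a value in that fit, with Cxcl12 at 3.54 and Col1a1 at −3.92, while tdTomato, not called, went from −1.08 to 0.41, and why the calls were lost was not tested.

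Matrix and mineralization genes fell in 24 of 37 tested and rose in 2, against 10.0% and 5.65% of all genes. Their median log2 difference was −1.60 against 0.087 over all tested genes. Col1a1 was at 7775 and 13067 CPM in low-matrix cells against 139439 and 102722 CPM in mature osteoblasts (−4.29 ± 0.45). Sparc, osteonectin, was at 4816 and 5866 against 41618 and 35817 CPM (−3.61 ± 0.29), and Ifitm5 at 53.7 and 80.1 against 695 and 690 CPM (−4.09 ± 0.38). High-matrix cells had 2759 and 5010 CPM of Col1a1 and 11.9 and 9.41 CPM of Ifitm5, and neither gene passed between the preosteoblast classes without the block. Tnc, tenascin-C, was 1 of the 2 rises, at 4382 and 2450 against 196 and 638 CPM (2.29 ± 0.46). Bambi, a decoy receptor for BMP, was at 86.0 and 109 against 364 and 372 CPM (−2.64 ± 0.20).

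Reticular niche genes were higher in low-matrix cells than in mature osteoblasts in 19 of 30 tested and lower in 0. Over all genes 5.65% were higher and 10.0% lower. The median log2 difference of the niche genes was 1.88. Cxcl12 was at 2487 and 977 against 30.8 and 143 CPM (3.45 ± 0.56), Kitl at 235 and 142 against 11.2 and 42.8 CPM (1.78 ± 0.37), and Lepr at 268 and 215 against 16.8 and 57.1 CPM (1.75 ± 0.36). Rspo3, a Wnt agonist, was at 336 and 143 against 0 and 31.2 CPM. eGFP passed narrowly (3.08 ± 0.90, edgeR adjusted p = 0.0471), while tdTomato, at 112 and 98.4 CPM in mature osteoblasts, did not (−1.08 ± 0.56, edgeR adjusted p = 0.226). On Cxcl12, Kitl and Lepr the low-matrix cells lay between reticular cells and mature osteoblasts in both mice. The 3 classes were cut on reticular and Bglap sums of the same cells, so that this order was likely. High-matrix cells had 1787 and 1585 CPM of Cxcl12, 174 and 207 CPM of Kitl and 180 and 270 CPM of Lepr. The middle position is thus not particular to low-matrix cells against mature osteoblasts.

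By the rule for named genes, Cxcl12, Marc1, Lfng, eGFP, Kng1 and Itga1 had the largest rises over mature osteoblasts and Bglap3, Lipc, Gal, Col2a1, Hrc and Mamdc2 the largest falls. Aside from the reporter, Lfng, a modifier of Notch receptors, was at 55.1 and 22.8 against 2.80 and 2.63 CPM (3.11 ± 0.66), and Itga1, a collagen-binding integrin, at 96.3 and 45.2 against 0 and 6.38 CPM (2.96 ± 0.53). Col2a1, the collagen of cartilage, was at 45.8 and 23.6 against 482 and 1017 CPM (−5.22 ± 0.44), and Gal, the neuropeptide galanin, at 3.74 and 1.72 against 53.2 and 60.5 CPM (−5.29 ± 0.35). Bglap3 shares sequence with Bglap and Bglap2, so that its counts are uncertain.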

How the data were processed

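Cells of femurs of 2 mice (1 group) were profiled as 3' single-cell libraries. The authors deposited raw UMI counts per gene and barcode, unfiltered, made with Cell Ranger 3.0.0 per the file headers and mapped to mm10 with added reporter sequences. The labels also name Seurat, without its role. The counter's settings and annotation release are not given in the sources used here.

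Barcodes with 1000 or more genes and no more than 15% of UMIs from mitochondrial genes were taken as cells. Classes were set by the gene sums given in the text. Reticular cells passed the same exclusions, with a reticular sum of at least 5 per 10000 that was no lower than the preosteoblast sum. Doublets were kept and no caller was run. Leaving out cells over 2 times the median UMIs was the alternative. Counts were summed per mouse and class and tested with edgeR 4.0.16 (R 4.3.3, quasi-likelihood test, TMM scaling, filterByExpr), 4 classes in 1 fit, with Benjamini-Hochberg adjustment over all tested genes except the rule genes and given markers, which were not tested. TMM factors of mature osteoblasts were 0.638 and 0.733, so that fitted differences from them can depart from plain CPM ratios. DESeq2 1.42.0 was an alternative. The script was tested on simulated data. P-values rest on the spread between the 2 animals within a class, estimated over the 4 classes without a term for the mouse. With only the low-matrix and high-matrix classes fitted, Ank, Cpz and Prss35 were not called (edgeR adjusted p = 0.0930, 0.0605 and 0.0862). Intervals and floors cover counting error only.

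The classes of a pair came from 1 animal. Deviations of the same mouse from class means correlated, across genes, at 0.265 for low-matrix and high-matrix, 0.274 for reticular and 0.0116 for mature cells.

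The cells and gene lists were chosen with earlier results of these data known. Named genes were called, moved the same way in both mice, had at least 20 CPM in the higher class of both mice and a gene name other than clone, mitochondrial, ribosomal, hemoglobin or immunoglobulin: the 12 largest rises and falls between preosteoblast classes (4 met this) and the 6 of each for the others, plus listed genes.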

Additional observations from a re-analysis of the deposited data

How the results depend on the processing

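Between low-matrix and high-matrix preosteoblasts the number of called genes moved from 5 to 32 with the replicate block (the mouse), 28 with DESeq2, 339 with no filter on low counts, 3 without cells over 2 times the median UMIs, 28 for the lowest against the highest of 3 equal groups of the sum and 28 after thinning to 2000 UMIs. Without preosteoblasts at 5 or more Bglap and Bglap2 per 10000, chosen after seeing the data, it was 1. The 5 genes were all called under 7 of the 12 alternatives. Dmp1 and Timp1 were called under 10. The cause was not tested, apart from the number of genes tested without a filter, 19276 against 11620. With 1 threshold for both mice (22.4 per 10000, chosen after seeing the data) 7 genes were called. Against mature osteoblasts the count moved from 1819 to 1066 when only the 2 classes were fitted and to 0 without cells over 2 times the median UMIs. Against reticular cells it was between 1781 and 3343. The replicate block gave 2895 against reticular and 1858 against mature cells and, outside the changes given with the results, changed no other count by over 1.5 times. Without replicate 1 or replicate 2 there is 1 sample a class and no count of calls could be made. The number of low-matrix cells was 144 and 306 in the single mice, their share 5.24% and 6.68%, eGFP 1269 and 3330 CPM, and tdTomato 29.0 and 127 CPM. Of 99 gene values checked, none changed sign while called. The depth limits genes with few UMIs, such as Dmp1 with 2 in the low-matrix cells of Mouse #1.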
